A study of Mus musculus with 8 samples.

Results

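ER folding and ER-associated degradation genes were followed as 33 listed symbols of the 21983 in a gene count table from AML-12, a line of mouse liver parenchymal cells kept in culture. The list was fixed by symbol, and all 33 symbols had a row. The 4 control libraries came from cells carrying pLKO.1, a lentiviral vector backbone, and their genotype label is WT. The other 4 came from cells labelled as overexpressing GM47544, a mouse long non-coding RNA, whose vector the titles leave out. The series is named for a link of GM47544 to ubiquitination of APOC3, a protein of lipoproteins, and the comparison asks which transcripts differ between both states. Nothing in the labels says whether libraries of a group were separate cultures or 1 transduced pool, so the p-values rest on a library-to-library spread that could be technical. GM47544 itself was not analysed here.

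Proteins that enter the endoplasmic reticulum (ER) are folded there by chaperones, by lectins that read their sugar chains and by enzymes that form disulfide bonds. Proteins that fail to fold are sent back to the cytosol, tagged with ubiquitin and destroyed by the proteasome, a route called ER-associated degradation. When unfolded protein builds up, the membrane sensors IRE1 (gene Ern1), ATF6 and PERK (gene Eif2ak3) start the unfolded protein response, in which ATF6 and the spliced form of XBP1 raise the transcription of folding and degradation genes. Hepatocytes secrete most plasma proteins and so carry a heavy folding load. Gene counts do not separate spliced from unspliced Xbp1, and sensor activity is set after transcription, so neither was measured.

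Promoter sequences of these genes are shown first, because a shared stress element is what many of the members are known for. RefSeq promoter windows on GRCm38.p6, from 250 bases before to 50 after a gene's start, matched 28 of the 33 members by symbol or synonym. Atf6, Manf, Hyou1, Sil1 and Derl1 had none in the table used. Both strands were searched for the ER stress response element (ERSE), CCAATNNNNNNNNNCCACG, with N for any base. It was found in 9 of 28 members (32.1%) against 39 of all 32851 windows (0.119%). Because many members are known for this element, an excess was given beforehand and is no result of these data. The 9 were Hspa5, Hsp90b1, Calr, Canx, Pdia6, Dnajc3, Creld2, Syvn1 and Derl3, and Hsp90b1 held 2 matches. The 6 with the smallest p of the expression comparison are printed 5′ to 3′ on the gene's strand, with the fixed letters of each match in capitals. Where a match lies on the opposite strand it reads CGTGG first and ATTGG last, as in Calr and in the second match of Hsp90b1. The Hspa5 stretch lies before the RefSeq start but inside the gene as annotated in GENCODE M21, and is shown with shorter flanks for that reason.
Calr, chr8:84847063-84847105, minus strand: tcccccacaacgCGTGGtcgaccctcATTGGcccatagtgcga
Canx, chr11:50325788-50325830, minus strand: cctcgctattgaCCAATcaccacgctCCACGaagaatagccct
Hspa5, chr2:34772020-34772048, plus strand: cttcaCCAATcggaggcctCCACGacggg
Hsp90b1, chr10:86705521-86705668, minus strand: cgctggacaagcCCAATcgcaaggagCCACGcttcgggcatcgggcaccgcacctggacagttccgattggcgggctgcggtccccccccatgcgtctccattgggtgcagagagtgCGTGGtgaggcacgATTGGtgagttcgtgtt
Dnajc3, chr14:118937815-118937857, plus strand: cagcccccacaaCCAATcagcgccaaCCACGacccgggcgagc
Syvn1, chr19:6046520-6046562, plus strand: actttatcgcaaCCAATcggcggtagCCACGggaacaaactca

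The shorter ERSE-II (ATTGG, any 1 base, then CCACG) was found in Herpud1 and Dnajb11, 2 of 28 members (7.14%) against 12 of 32851 windows (0.0365%). The Herpud1 stretch is shown as an example chosen after its values were seen.
Herpud1, chr8:94386365-94386399, plus strand: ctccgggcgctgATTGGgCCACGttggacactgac
The UPRE core TGACGTGG was in no member window and in 0.676% of all windows. The 5-letter CCACG that ends both ERSE forms was found for 23 of 28 members (82.1%) against 32.8% of all windows. Every ERSE or ERSE-II match contains it. All windows include those of genes that were not tested, whereas nearly all members were, so the sets are unlike. A member was counted if any window of it matched, whereas the windows were counted singly. Of the 11520 tested genes, 4766 had CCACG in a window, a larger share than that of all windows and a closer comparison for the members. A match describes letters in a window and is no measured binding site. Among the 9 members with a full ERSE, 2 were called higher in the overexpression libraries (Hspa5 and Canx), 1 lower (Calr), 5 not called and 1 not tested, beside 32.3% and 32.1% of all tested genes. Over all 15 tested genes with a full ERSE, members included, 8 were called higher and 1 lower. Both ERSE-II members were called lower, and of all 8 tested genes with it 5 were lower and 2 higher.

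Library totals ran from 11016907 to 18965662 counts. The first principal component of all tested genes held 82.5% of the variance and split controls from overexpression, and control library 3 lay at -22.2 on it, between the other controls (-60.7 to -50) and the overexpression libraries (43.4 to 50.4). Results below are therefore given with and without that library where it matters. The hepatocyte list summed to 2114 to 2747 CPM in controls and 1381 to 1453 CPM under overexpression. Of its 12 tested genes 3 were called higher and 5 lower, beside 32.3% and 32.1% of all tested genes. Alb, the albumin gene, rose from 22.3 ± 3.85 to 266.8 ± 28.2 CPM, and Ttr, the transthyretin gene, fell from 1321 ± 239 to 279 ± 24.2 CPM (SD, n = 4). Ttr was the largest gene of the control sum, and its fall was about as large as that of the whole sum. Hnf4a, the central hepatocyte transcription factor, was at 348 ± 23.7 CPM in controls and 310.3 ± 4.51 under overexpression (SD, n = 4), while Ahsg and Apoa2 had at most 3 counts over a group. CPM are counts scaled to library size by the trimmed-mean method. Among markers of other cells, 3 of 10 fibroblast genes (Col1a2, Col3a1 and Lum) and 3 of 10 leukocyte genes (Adgre1, Clec4f and Cd3e) had no count in any library. The summed fibroblast list was at 3.87 to 5.63 CPM in controls and 10.4 to 17.6 CPM under overexpression, and the endothelial list at 0.437 to 1.5 and 3.23 to 4.24 CPM. The leukocyte list, nearly all Cd14, was at 830.2 to 1294 against 602 to 751 CPM, and the cholangiocyte list, mostly Spp1 and Krt19, at 2788 to 4139 against 4475 to 5077 CPM. Of its 4 tested genes Spp1 was higher (943 to 2731 CPM on average), Krt19 and Sox9 were lower, and Krt7 did not pass. The part of these lists in the results below was not tested, and in bulk RNA fewer cells of a type and less RNA per cell cannot be told apart.

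ER folding and degradation genes changed in both directions and by less than 2-fold. Of 33 members, 31 passed the count filter, and 17 of these (54.8%) were called at an adjusted p below 0.05 (edgeR's quasi-likelihood test, Benjamini-Hochberg over 11520 genes), against 64.4% of all genes tested. The test called 8 higher (background 32.3%) and 9 lower (background 32.1%). These counts lie near the shares of the whole table and are not read as a trait of the members. The higher ones were Eif2ak3, Hspa5, Canx, Pdia3, Pdia4, Edem1, Edem3 and Sel1l, and the lower ones Calr, Dnajb11, Dnajc10, Herpud1, Sdf2l1, Manf, Edem2, Derl1 and Derl2. The log2 fold changes of called members ran from 0.33 to 0.68 upward and from -0.38 to -0.67 downward. None reached 2-fold, whereas 20.5% of all tested genes were called with at least a 2-fold change. The median log2 fold change of the members was -0.01, beside 0.000406 over all tested genes, and the median of its absolute size was 0.38 beside 0.53. The members together held 0.616 to 0.755% of control counts and 0.708 to 0.787% of overexpression counts. Both groups failed to overlap for 6 members that were higher and 8 that were lower, 14 of 31, against 56.0% of all tested genes (28.5% higher and 27.5% lower). With library totals as the only scaling the members' median was 0.12, while the median of all genes moved to 0.128.

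**Figure D1:**
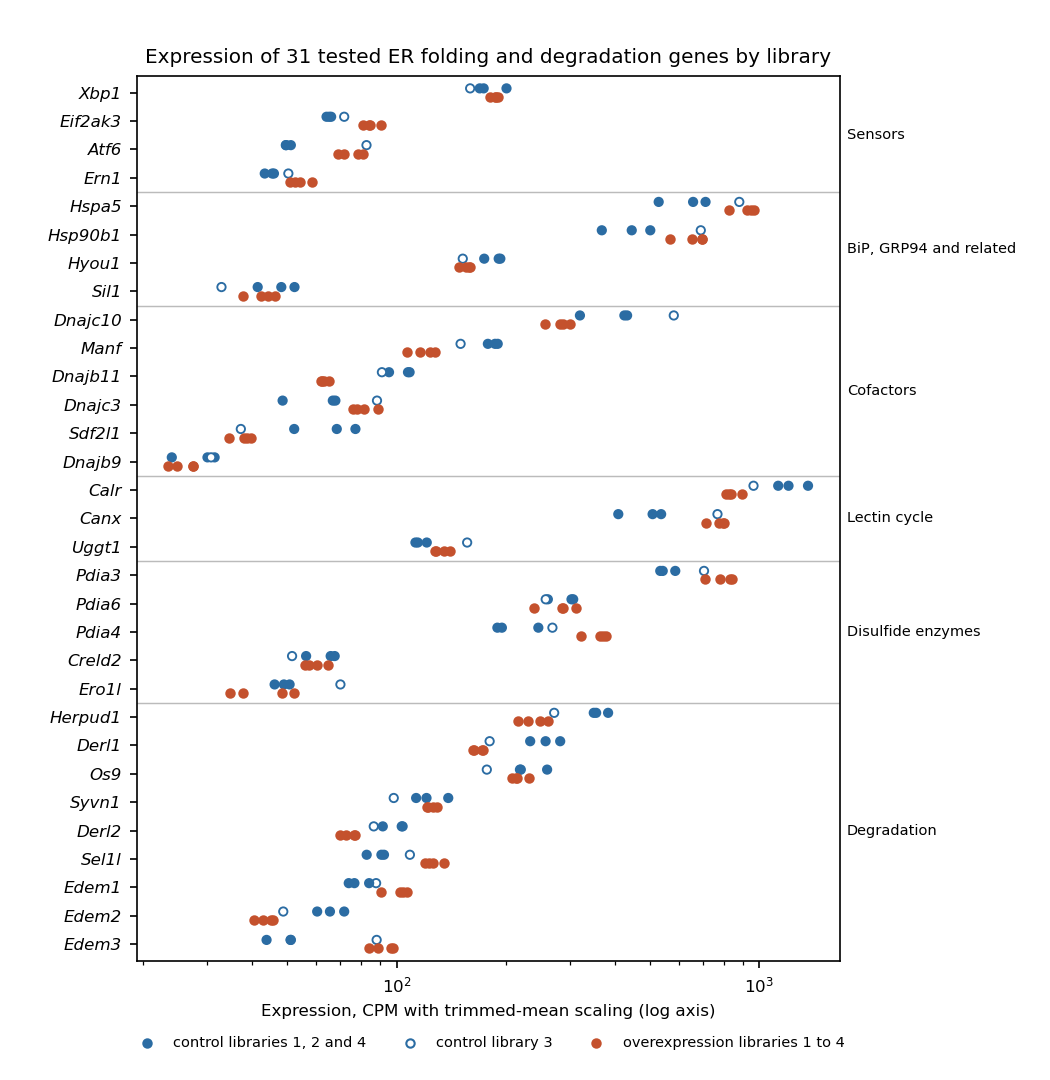
Expression of the 31 tested members in every library, in CPM on a log axis, grouped by role; blue points are control libraries, the open point being control library 3, and red points are overexpression libraries. The red points lie closer together than the blue ones for most genes, and the open point often lies toward them, as for Edem3 at 88.1 CPM against 43.8 to 51.1 CPM in the other controls.

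Among the sensors, Eif2ak3 was higher and the other genes did not pass the test. Eif2ak3 encodes PERK, the kinase that slows translation under ER stress. It was at 66, 65.2, 71.7 and 64.1 CPM in control libraries 1 to 4, and the overexpression libraries 1 to 4 were at 90.4, 80.9, 83.8 and 84.5 CPM. The groups did not overlap, and the log2 fold change was 0.35 (SE 0.10, edgeR, adjusted p = 0.00858). With the trend on gene length removed it was 0.17 (edgeR, adjusted p = 0.108, the largest p of 17 alternatives, whose smallest was 1.76e-04). In the annotation 8.05% of its exon bases overlap a gene on the opposite strand, and the strand setting of the counting is not known here.

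Atf6, which encodes the sensor that is cleaved in the Golgi to release a transcription factor, was at 51.1, 49.5, 82.6 and 49.6 CPM in controls and 78.3, 71.7, 69.1 and 80.6 CPM under overexpression. Control library 3 was the highest of all 8 libraries, and the other 3 controls lay below every overexpression library. The log2 fold change was 0.36 (SE 0.16, edgeR, adjusted p = 0.067), and without control library 3 it was 0.55 (adjusted p = 9.03e-06, the lowest of 17 alternatives, the highest being 0.877). That highest value was reached with the length trend removed, where the change was -0.02. Ern1, the IRE1 kinase and nuclease that splices Xbp1, was at 45.4, 43.3, 50.3 and 45.9 CPM in controls and 52.6, 54.3, 50.8 and 58.5 CPM under overexpression. Its groups did not overlap, and the log2 fold change of 0.23 (SE 0.11) missed the threshold (edgeR, adjusted p = 0.0784). It passed without control library 3 (0.24, adjusted p = 0.013, over a range of 0.00408 to 0.317), and with the length trend removed it was -0.11 (adjusted p = 0.317). Xbp1, the transcription factor that IRE1 activates, was at 174, 169.5, 159.5 and 201 CPM in controls and 186, 191, 180.5 and 188 CPM under overexpression. The overexpression values lay inside the control range, with a log2 fold change of 0.08 (SE 0.10, edgeR, adjusted p = 0.497). It was 0.27 and 0.30 with the trend on gene length or GC content removed (adjusted p = 0.0206 and 6.53e-04, over a range of 6.53e-04 to 0.888).

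Of 4 chaperones and their exchange factors, Hspa5 was higher and 3 did not pass, beside 32.3% of all tested genes called higher. Hspa5 encodes BiP, the main ER chaperone of the HSP70 family, and is described in full outside the naming rule because the cofactors below act on it. It was at 657, 711, 881 and 528 CPM in controls and 825, 922, 969 and 951 CPM under overexpression. Control library 3 exceeded the lowest overexpression library, and the other controls did not. The ratio of means was 1.32 and the log2 fold change 0.40 (SE 0.14, edgeR, adjusted p = 0.0253). The call was lost in 7 of 17 alternatives, 6 of them leaving out control library 1, 2 or 4 or overexpression library 2, 3 or 4 (adjusted p = 0.0692, 0.0525, 0.0589, 0.0569, 0.0685 and 0.0647). The other was removal of the GC trend, where the log2 fold change was 0.15 (adjusted p = 0.131, with p from 1.08e-05 to 0.131 over the alternatives), and without control library 3 it was 0.51 (adjusted p = 1.56e-04). Hsp90b1 encodes GRP94, the HSP90 of the ER. It was at 445, 500.5, 690 and 368 CPM in controls and 569, 654, 694 and 693 CPM under overexpression. Again control library 3 lay among the overexpression libraries, and the log2 fold change of 0.38 (SE 0.17) did not pass (edgeR, adjusted p = 0.0595). It passed without control library 3 (0.55, adjusted p = 1.11e-04) and did not with the GC trend removed (adjusted p = 0.999, the largest p of 17 alternatives, whose smallest was 1.03e-05). A pseudogene on the opposite strand overlaps 10.3% of its exon bases. Hyou1 and Sil1, nucleotide exchange factors that reset BiP, had log2 fold changes of -0.19 (SE 0.11) and -0.03 (SE 0.15) and did not pass. Hyou1 passed without control library 3 (log2 fold change -0.29, edgeR, adjusted p = 0.00181, over a range of 0.00181 to 0.909).

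The cofactors of BiP included 4 genes that were lower, 2 that did not pass and none called higher, beside 32.1% of all tested genes called lower. Hyou1 and Sil1, which also act on BiP, were counted with the chaperones above and did not pass, so the count depends on that grouping. The median log2 fold change over these 6 cofactors was -0.60. It was -0.17 with the length trend removed, where 3 were called lower, and -0.53 with the GC trend removed, where 5 were called lower. Dnajb11 (ERdj3), a J-domain protein that brings unfolded clients to BiP, was at 95.3, 109, 91.1 and 107.5 CPM in controls and 65.3, 62.4, 62 and 63.2 CPM under overexpression. Every overexpression library lay below every control, and the log2 fold change was -0.67 (SE 0.10, edgeR, adjusted p = 1.34e-04). Manf, a small secreted protein that binds BiP, was at 178.5, 187, 150.1 and 190.0 CPM in controls and 107, 116, 127 and 124 CPM under overexpression. It too showed no overlap, with a log2 fold change of -0.57 (SE 0.11, edgeR, adjusted p = 7.38e-04). In the annotation 4.14% of the Manf exon bases overlap Dcaf1 on the opposite strand and 4.71% an antisense gene. Dnajc10 (ERdj5), a J-domain protein that also reduces disulfide bonds of degradation clients, was at 425, 432, 581 and 320.2 CPM in controls and 256, 283, 287 and 301 CPM under overexpression. Here control library 3 was the highest library of all, on the side away from the overexpression libraries, and the log2 fold change was -0.64 (SE 0.15, edgeR, adjusted p = 0.00289). The calls of Dnajb11, Manf and Dnajc10 held in all 17 alternatives.

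Sdf2l1, which forms a complex with Dnajb11, had a mean of 58.7 ± 17.6 CPM in controls and 37.7 ± 2.3 CPM under overexpression (SD, n = 4). Control library 3, at 37.2 CPM, lay within the overexpression range of 34.4 to 39.6 CPM, and the log2 fold change was -0.64 (SE 0.19, edgeR, adjusted p = 0.00953). Sdf2l1 has the shortest exon length of all members, 1108 bases, and with the GC trend removed its log2 fold change was -0.30 and with the length trend removed 0.11 (adjusted p = 0.471, the largest p of 17 alternatives, whose smallest was 2.58e-06). Dnajb9 (ERdj4), a J-domain protein that restrains IRE1, and Dnajc3 (p58IPK), another BiP partner, had log2 fold changes of -0.18 (SE 0.13) and 0.26 (SE 0.16) and did not pass. Dnajc3 passed without control library 3 (0.38, edgeR, adjusted p = 0.00341, over a range of 0.00308 to 0.418). Dnajb9 passed only with the GC trend removed, at -0.60 (adjusted p = 4.31e-04, over a range of 4.31e-04 to 0.741).

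**Figure D2:**
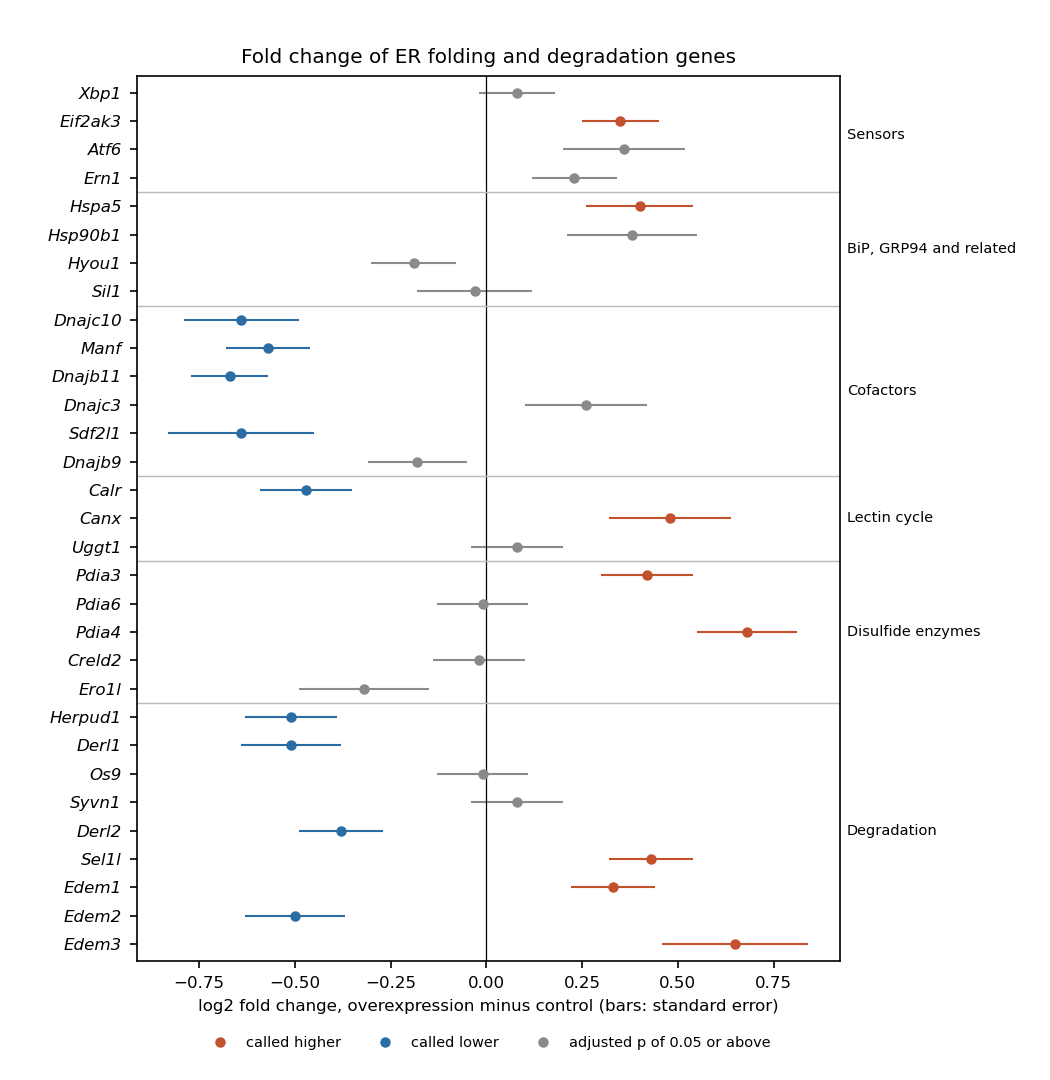
log2 fold change of each tested member, overexpression minus control, with bars of 1 standard error, in red for genes called higher, blue for genes called lower and grey for genes at an adjusted p of 0.05 or above. Changes lie between -0.67 (Dnajb11) and 0.68 (Pdia4). Of the 6 cofactors of BiP, 5 lie below 0, 4 of them called, beside 32.1% of all tested genes called lower. Hyou1 and Sil1, which also act on BiP, are drawn with the chaperones and were not called.

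The lectin chaperones calreticulin and calnexin went in opposite directions. Calr, the soluble lectin of the ER lumen, was at 1127, 1204, 964 and 1362 CPM in controls and 808, 826.5, 895 and 834 CPM under overexpression. All controls exceeded all overexpression libraries, and the log2 fold change was -0.47 (SE 0.12, edgeR, adjusted p = 0.0038). With the length trend removed it was -0.22 (adjusted p = 0.071, the largest p of 17 alternatives, whose smallest was 2.27e-06). Canx, the membrane-bound counterpart that binds the same sugar chains, was at 508, 536, 767 and 408.5 CPM in controls and 715, 776, 796 and 799.5 CPM under overexpression. Control library 3 fell among the overexpression libraries, and the log2 fold change was 0.48 (SE 0.16, edgeR, adjusted p = 0.0201). The Canx call was lost without control library 1, 2 or 4 (adjusted p = 0.0622, 0.0533 and 0.0505) and with the GC trend removed, where the change was 0.10 (adjusted p = 0.237, over a range of 3.31e-07 to 0.237). Uggt1, the glucosyltransferase that returns misfolded glycoproteins to both lectins, had a log2 fold change of 0.08 (SE 0.12) and did not pass. It has the longest exon length of the members, 12853 bases, and with the length trend removed it was called lower at -0.53 (edgeR, adjusted p = 1.84e-04, over a range of 1.84e-04 to 0.914). Without control library 3 it was called higher at 0.17 (adjusted p = 0.044).

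Counts of 2 genes set against each other within a library do not depend on the scaling between libraries. These pairs were chosen after their values were seen and carry no test. Of 12 pairs computed, 7 did not overlap between the groups and 5 did: Hsp90b1 per Hspa5, Derl1 per Derl2, Pdia3 per Pdia6, Sel1l per Syvn1 and Sdf2l1 per Dnajb11. The share over all gene pairs was not computed, and 56.0% of single tested genes did not overlap. Pairs of a member called higher with 1 called lower, such as Canx and Calr, are set apart in large part by those calls. Canx had 0.45, 0.445, 0.796 and 0.3 counts per count of Calr in controls 1 to 4 and 0.884, 0.939, 0.889 and 0.959 under overexpression, with no overlap. Control library 3 lay much nearer the overexpression libraries than the other controls did. Dnajc10 per Hspa5 was 0.646, 0.608, 0.66 and 0.607 in controls and 0.311, 0.307, 0.296 and 0.317 in overexpression libraries. In that ratio control library 3 lay with the other controls, and the group means were 0.63 ± 0.0271 and 0.308 ± 0.00863 (SD, n = 4). Hsp90b1 per Hspa5 overlapped between the groups, at 0.715 ± 0.0466 and 0.711 ± 0.0162 (SD, n = 4).

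**Figure D3:**
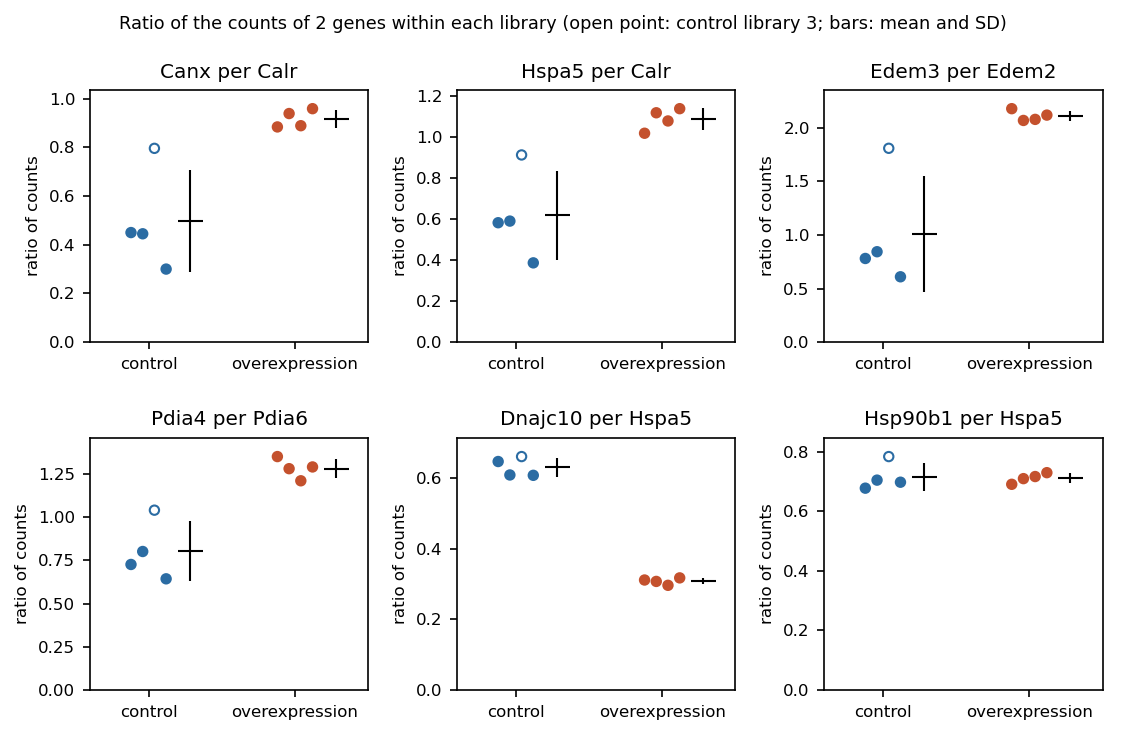
Ratio of the counts of 2 members within each library, by group, with points for libraries (open for control library 3) and the mean and SD beside them; each vertical axis starts at 0. The ratios of Canx to Calr, Hspa5 to Calr, Edem3 to Edem2, Pdia4 to Pdia6 and Dnajc10 to Hspa5 do not overlap between the groups, and that of Hsp90b1 to Hspa5 does; 6 of the 12 computed pairs are drawn.

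Of the enzymes that form and shuffle disulfide bonds, Pdia4 and Pdia3 were higher. Pdia4 (ERp72), a multidomain disulfide isomerase, was at 190, 246, 269 and 195 CPM in controls and 322, 364, 379 and 372 CPM under overexpression. The groups were well apart, and the log2 fold change of 0.68 (SE 0.13, edgeR, adjusted p = 6.18e-04) was the highest of the members. Pdia3 (ERp57), the isomerase that works with calnexin and calreticulin, was at 542, 586.5, 704 and 533 CPM in controls and 707, 779, 842.5 and 828 CPM under overexpression. Control library 3 came close to the lowest overexpression library without reaching it, and the log2 fold change was 0.42 (SE 0.12, edgeR, adjusted p = 0.00773). Both calls held in all 17 alternatives, with the Pdia3 change at 0.23 once the GC trend was removed. Pdia6, an isomerase that also acts on IRE1 and PERK, was at 261, 307, 258 and 303.5 CPM in controls and 239, 285, 312 and 288 CPM under overexpression, with full overlap and a log2 fold change of -0.01 (SE 0.12, edgeR, adjusted p = 0.969). Pdia4 per Pdia6 was 0.803 ± 0.172 in controls and 1.28 ± 0.0551 under overexpression (SD, n = 4).

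Pdia5, a further isomerase, had 0 counts in all 8 libraries. If its reads could be counted at all, this allows at most 0.158 to 0.272 CPM of the library total by a floor of 3 counts, counting error only. Ero1l, the oxidase that recharges the isomerases, had a log2 fold change of -0.32 (SE 0.17, edgeR, adjusted p = 0.103) and passed with the length or GC trend removed (-0.42 and -0.73, adjusted p = 0.0259 and 1.20e-04, over a range of 1.20e-04 to 0.335). Creld2, an ER stress-induced protein with isomerase-like motifs, had -0.02 (SE 0.12), and was called higher at 0.58 and 0.26 with those trends removed (adjusted p = 5.14e-04 and 0.0153, over a range of 5.14e-04 to 0.989).

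Among degradation genes, the EDEM family held members called in both directions, while both tested derlins were lower. Of 9 tested, 3 were higher, 4 lower and 2 not called, beside 32.3% higher and 32.1% lower over all tested genes. The EDEM proteins are related to mannosidases and mark glycoproteins for disposal. Edem3 was at 51.1, 51, 88.1 and 43.8 CPM in controls and 97.9, 88.7, 84.1 and 96.5 CPM under overexpression. Control library 3 again lay among the overexpression libraries, and the log2 fold change was 0.65 (SE 0.19, edgeR, adjusted p = 0.00826). It stayed called in all 17 alternatives, at 0.89 without control library 3 and at 0.31 with the GC trend removed. Edem1 was at 73.8, 76.5, 87.8 and 84 CPM in controls and 90.7, 104, 102 and 107 CPM under overexpression. The groups did not overlap, and the log2 fold change was 0.33 (SE 0.11, edgeR, adjusted p = 0.0167). The Edem1 call was lost in 6 of 17 alternatives: without control library 1 or 2 (adjusted p = 0.0585 and 0.0612), without overexpression library 2 or 4 (0.0565 and 0.064), and with the length or GC trend removed, at 0.11 and 0.09 (adjusted p = 0.311 and 0.346, over a range of 4.87e-05 to 0.346). Edem2 went the other way, at 65.5, 60.4, 48.7 and 71.7 CPM in controls and 45, 42.9, 40.5 and 45.6 CPM under overexpression. It showed no overlap, with a log2 fold change of -0.50 (SE 0.13, edgeR, adjusted p = 0.00433), a call that held in all 17 alternatives and was -0.26 with the GC trend removed. Edem3 per Edem2 was 0.781, 0.844, 1.81 and 0.61 in controls and 2.18, 2.07, 2.08 and 2.12 in overexpression libraries.

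Sel1l, the adaptor of the HRD1 ubiquitin ligase, was at 92.3, 90.8, 109 and 82.7 CPM in controls and 135, 120, 123 and 126 CPM under overexpression. The groups did not overlap, and the log2 fold change was 0.43 (SE 0.11, edgeR, adjusted p = 0.0049). With the length trend removed it was 0.07 (adjusted p = 0.527, the largest p of 17 alternatives, whose smallest was 1.20e-05), and the Sel1l exons span 8555 bases. Syvn1, which encodes HRD1 itself, had a log2 fold change of 0.08 (SE 0.12) and did not pass, except with the GC trend removed (0.39, edgeR, adjusted p = 1.10e-04, over a range of 1.10e-04 to 0.864). Os9, a lectin that hands glycoproteins to the complex, was at 220, 219, 177 and 260 CPM in controls and 215, 214, 232 and 208 CPM under overexpression. The overexpression values sat inside the control range, with a log2 fold change of -0.01 (SE 0.12, edgeR, adjusted p = 0.94). Os9 was called higher with the length or GC trend removed, at 0.28 and 0.30 (adjusted p = 0.0227 and 0.00126, over a range of 0.00126 to 0.999).

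Herpud1, a membrane protein that organises the ligase complex, was at 349.6, 355, 272 and 383 CPM in controls and 216, 231, 261.5 and 249 CPM under overexpression. Control library 3 was nearest to the overexpression libraries, the groups did not overlap, and the log2 fold change was -0.51 (SE 0.12, edgeR, adjusted p = 0.00313). With the GC trend removed it was -0.28, and with the length trend removed -0.15 (adjusted p = 0.198, the largest p of 17 alternatives, whose smallest was 9.99e-07). The derlins are membrane proteins of the exit route to the cytosol. Derl1 was at 257.5, 233.5, 180.5 and 282.5 CPM in controls and 163, 163, 173 and 172 CPM under overexpression. It showed no overlap and a log2 fold change of -0.51 (SE 0.13, edgeR, adjusted p = 0.0046). Derl2 fell from 96.4 ± 8.65 to 73.9 ± 3.18 CPM (SD, n = 4), with a log2 fold change of -0.38 (SE 0.11, edgeR, adjusted p = 0.0067). Both derlin calls held in all 17 alternatives, with Derl1 at -0.34 once the length trend was removed. The Derl2 change was -0.73 and -0.81 with the length or GC trend removed and -0.25 with library totals alone. Derl3 was near the limit of detection, with 3, 6, 4 and 4 counts in controls and 1, 2, 5 and 1 under overexpression. Its ratio at equal depth was 0.62 (95% exact interval 0.244 to 1.47, counting error only), an interval that includes equal levels.

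Medians of gene length and base composition differed between members called higher and lower, while their ranges overlapped. Exon lengths ran from 2399 to 8555 bases for members called higher and from 1108 to 8049 for those called lower. GC content ran from 42.2 to 51.2% and from 42.9 to 56.7%. The median exon length was 5359.5 bases for the members called higher, 3328 for those called lower and 4463 for all tested genes, and the median GC content of their longest transcripts was 46.6%, 50.5% and 49.7%. When a smooth trend on length was removed from each library, 5 of the 8 higher members stayed called (Hspa5, Canx, Pdia3, Pdia4 and Edem3) and 6 of the 9 lower (Dnajb11, Dnajc10, Manf, Edem2, Derl1 and Derl2), none was called the other way, and 7 others gained a call. With a trend on GC content removed instead, 5 of 8 higher members stayed called (Eif2ak3, Pdia3, Pdia4, Edem3 and Sel1l) and all 9 lower ones, and 8 others gained a call. The share of all tested genes called was 60.6% with the length trend removed and 71.4% with the GC trend removed, and members were called 9 higher and 9 lower in the first case (background 29.4% and 31.1%) and 11 higher and 11 lower in the second (background 35.8% and 35.6%). Pdia3, Pdia4 and Edem3 were called higher, and Dnajb11, Dnajc10, Manf, Edem2, Derl1 and Derl2 lower, in each of the 17 alternatives. Whether length or composition has a part in these differences beyond what the trends remove was not tested.

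**Figure D4:**
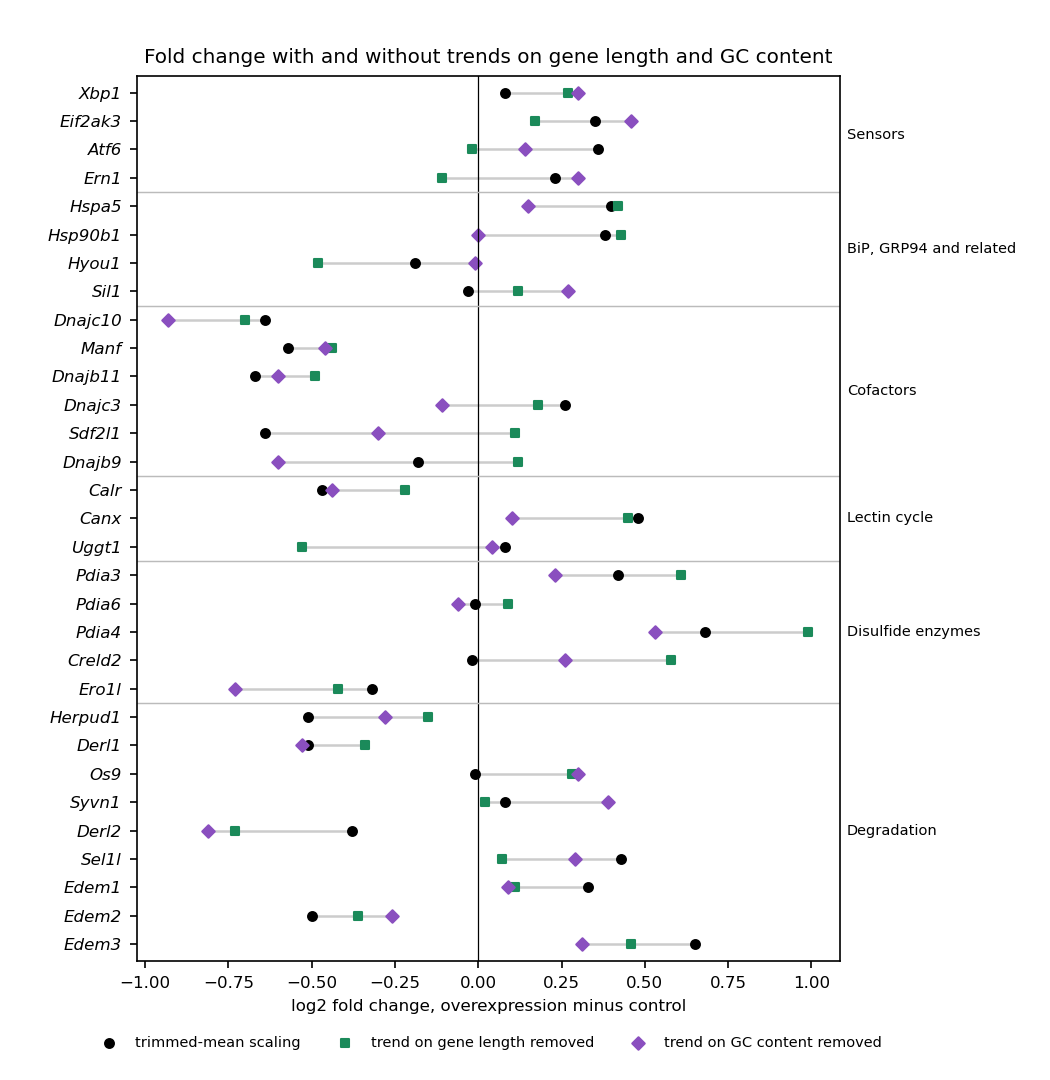
log2 fold change of each tested member under trimmed-mean scaling (black circles) and after a trend on gene length (green squares) or GC content (purple diamonds) was removed from every library. Sdf2l1 moves from -0.64 to 0.11 and Uggt1 from 0.08 to -0.53 with the length trend removed, while all 3 values of Pdia4, Edem3, Dnajb11, Manf and Dnajc10 stay on 1 side of 0.

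Control library 3 stood apart for these genes as it did for the table as a whole. It was outside the range of the other 3 controls, on the side of the overexpression mean, for 26 of 31 tested members (83.9%), against 70.2% of all tested genes. All 8 members called higher had their highest control value there, and 8 of the 9 called lower had their lowest, the exception being Dnajc10. Without control library 3 all 17 calls remained, and Ern1, Atf6, Hsp90b1, Dnajc3 and Uggt1 were added as higher and Hyou1 as lower, 13 higher and 10 lower in all (background 38.7% in each direction, 77.4% together). That library was singled out from these same data for lying toward the overexpression libraries. Leaving it out therefore favours calls and is no independent support for them. Without control library 1 or 2, 5 members were called higher. The coefficient of variation was larger in controls than in overexpression libraries for 30 of 31 members (96.8%) and for 85.3% of all tested genes.

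Per exon length the 3 most abundant and the 2 least abundant tested members were the same in both groups, while others moved by up to 7 places, as Edem3 did from rank 29 to 22. On the scale of CPM per kilobase of annotated exon, Calr was the most abundant member in both groups, at 334.6 to 473 in controls and 281 to 311 in overexpression libraries. Pdia3 and Hspa5 followed at 188 and 164 on average in controls and 251 and 217 in overexpression libraries, and their ranges overlapped within each group. Herpud1 was the fourth in controls (146) and below Canx, Hsp90b1 and Pdia4 in overexpression libraries (103 against 164, 162 and 149.8). The sensors Atf6 and Ern1 were the lowest of the tested members, at 6.31 and 5.65 in controls and 8.12 and 6.61 in overexpression libraries, with overlapping control ranges. Exon lengths are of all annotated isoforms together, which understates genes with long minor isoforms.

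Other genes of the secretory pathway were read from lists set beside the members, against 32.3% of all tested genes called higher and 32.1% lower. Among other folding enzymes 7 of 29 tested were higher and 10 lower (median log2 fold change -0.06, and 0.04 or -0.05 with the length or GC trend removed). Tmx4 and Ppic were at 1.13 and 0.64, and the prolyl isomerase Fkbp2 and the chaperone Erp29 at -1.07 and -0.97. The translocon and signal peptidase list had 4 of 23 higher and 12 lower (median -0.38, and -0.17 or -0.54 with the length or GC trend removed). Sec61a2, a second form of the channel subunit, was at 1.02, while the small channel subunit Sec61g and the signal peptidase subunit Sec11c were at -1.58 and -1.36, and Srp72 of the signal recognition particle at 0.69. N-glycosylation and glycan trimming had 4 of 26 higher and 12 lower (median -0.25, and -0.25 or -0.15 with the length or GC trend removed). Magt1 and Alg2 were at 0.90 and 0.41, and the mannosidase Man1a and the oligosaccharyltransferase subunit Krtcap2 at -1.44 and -1.06.

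Other degradation factors had 5 of 30 higher and 14 lower (median -0.35, and -0.14 or -0.23 with the length or GC trend removed). The lectin Erlec1 and Herpud2, a relative of Herpud1, were at 0.85 and 0.54, and the ubiquitin-conjugating enzyme Ube2g2 and Ubl4a at -1.34 and -0.79. The Herpud2 call was lost with the GC trend removed (0.14, edgeR, adjusted p = 0.22, over a range of 4.24e-06 to 0.22). Stress signalling outside the members had 6 of 24 higher and 13 lower (median -0.39, and -0.37 or -0.36 with the length or GC trend removed). Creb3l1 and Creb3l2, ER-anchored transcription factors cleaved like ATF6, were at 3.22 and 0.77, and Creb3l1 rose from 0.84 ± 0.381 to 7.59 ± 1.18 CPM (SD, n = 4; SE 0.27, edgeR, adjusted p = 1.67e-06). Chac1 and Trib3, which lie downstream of PERK and ATF4, were at -3.08 and -2.31. ER export and retrieval had 6 of 28 higher and 9 lower (median -0.09, and -0.16 or -0.08 with the length or GC trend removed). Sec23a and Copa were at 0.91 and 0.62 and Ergic1 at -0.54, and Sec13 fell from 180.6 ± 39.1 to 90.5 ± 7.98 CPM (SD, n = 4). The Copa change was 0.21 with the length trend removed (edgeR, adjusted p = 0.059, the largest p of 17 alternatives, whose smallest was 1.29e-09). The shares called in these lists ran from 53.6% to 79.2%, around the 64.4% of all tested genes. Removing the length trend moved Tmx4 to 0.65, Ppic to 1.21, Fkbp2 to -0.54, Krtcap2 to -0.49, Creb3l2 to 0.48 and Ergic1 to -0.94. Removing the GC trend moved Srp72 to 0.42, Magt1 to 0.51, Erlec1 to 0.45, Sec23a to 0.55 and Ergic1 to -0.34, and all of these stayed called.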

How the data were processed

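RNA-seq was read from 4 control and 4 overexpression libraries, grouped and numbered by sample titles. The authors deposited raw read counts per gene symbol with no normalization. FastQC, STAR, HTSeq and mm10 are named per the submitters' processing notes, while which gene models, tool versions and strand option were used is not known here. Counts were tested in R 4.3.3 with edgeR 4.0.16 (filterByExpr, minimum count 10; trimmed-mean scaling; quasi-likelihood test on group; two-sided; Benjamini-Hochberg over 11520 genes; threshold 0.05). Each standard error is the absolute log2 fold change over the root of the F statistic. Symbols were matched to GENCODE M21 (GRCm38) for 21926 of 21983 genes; trends used lowess with span 0.3. Alternatives used limma 3.58.1 and DESeq2 1.42.0.

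The members and lists were chosen with earlier results of these data known. The naming rule gave values per library for the 4 sensors, in each direction up to 7 members of smallest p among those called and the 3 most abundant members not called, and up to 2 called genes per direction from each other list. Of the other lists, Mesdc2, Ufd1l, Vimp and Tf matched no row, and Ufd1, Selenos and Trf did. No 2 libraries of a group agreed within counting noise (chi-square per gene 2.44 to 106). On simulated control and overexpression counts of 11443 genes, edgeR found 38% of the genes given a 1.5-fold change and 100% of those given 2-fold. Of its 176 calls, 7 were false. Only 50 genes were changed at each fold there, against 7417 genes called in the data, which makes the adjusted threshold stricter in the simulation. Changes of the size seen in the members could be missed, but the 38% does not give the share. Protein sequences were not used here. Figures used matplotlib 3.10.9.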

Additional observations from a re-analysis of the deposited data

Results flagged for a closer look

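Of 62 groups of 4 libraries examined for the tested members, 2 held a library whose gap to the nearest of the others exceeded Dixon's 95% critical share of the group's whole range, which chance alone meets in about 1 of 20 groups. Both were control library 3. Atf6 was at 82.6 CPM there and at 49.5 to 51.1 CPM in the other controls, and Edem3 was at 88.1 CPM against 43.8 to 51.1 CPM. Both values lie within or above the overexpression range of the same gene.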

How the results depend on the processing

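Of 527 values of single members under 17 alternatives, 472 kept their side of the threshold, 21 lost a call, 27 gained one and 7 changed sign with a call before or after. Among the 472, 24 values of 10 members not called either way also changed sign, such as Ern1 (-0.11) and Dnajb9 (0.12) with the length trend removed and Dnajc3 (-0.11) with the GC trend removed. The 7 sign changes with a call were with the length trend removed for Sdf2l1 (0.11), Creld2 (0.58), Os9 (0.28) and Uggt1 (-0.53), and with the GC trend removed for Creld2 (0.26), Os9 (0.30) and Sil1 (0.27). With all libraries 8 members were called higher, 13 with limma-voom, and 5 to 13 when 1 library was left out (5 without control library 1 or 2, 13 without control library 3). There were 9 called lower, and 9 to 10 without 1 library. The members' median of -0.01 was 0.12 with library totals alone, 0.09 with the length trend removed and -0.08 to 0.06 without 1 library, the lowest without control library 3 and the highest without control library 4. The cause was not tested. Calls over all genes ran from 6659 to 9001 without 1 library. Deviations from the group means had correlations of -0.119 to 0.0227 for same-numbered libraries and -0.0738 to 0.128 for the others. Because control library 3 stands apart from the other controls, these correlations cannot show whether equal numbers share a culture or a batch. With the replicate number as a block, 10 members were higher and 9 lower, and 7129 of all genes were called against 7417. Derl3, under about 10 counts in every library, is limited by depth. Whether the 0 counts of Pdia5 reflect its level or the gene models used in counting was not tested.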
